A study of Homo sapiens with 24 samples.

Results

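Gene expression in OCI-AML3 cells after 24 h of RMC-7977 was compared with that after 2 h of the same compound, over all 13033 genes of the table. The comparison used 7 of the 23 libraries analysed, 4 at 2 h and 3 at 24 h, taken by the line, compound and time in their labels. OCI-AML3, written OCIAML-3 in the labels, is an established human acute myeloid leukaemia cell line, and its labelled genotype is NRAS Q61L, so every OCI-AML3 library carries that mutation. RMC-7977 was used at 25 nM, and both treated groups received it. A single DMSO group of 4 OCI-AML3 libraries, for which no time is stated, gives the solvent level beside each result. A second line, Molm-14 (labelled FLT3-ITD), had 4 libraries at each time of the same treatment, and it serves below as the comparison line. All libraries were made from poly(A) RNA and carry the same batch label, and each line stands for itself as 1 cell line. The labels list 4 libraries at 24 h, and the third of them was not analysed here. Whether the replicates of a group are separate cultures is not stated, so each p-value reflects a scatter between libraries that may be technical only. That scatter was estimated within groups over all 23 libraries, those of DMSO and Molm-14 included, and not over the 7 alone. Because no DMSO library is matched to a time, hours in culture and hours on the compound cannot be told apart. In bulk RNA, fewer cells of a kind and less RNA per cell cannot be told apart either.

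RAS proteins are switches at the inner face of the cell membrane that, when loaded with GTP, pass growth factor signals to the RAF, MEK and ERK kinases. RMC-7977 joins with cyclophilin A to bind GTP-loaded RAS, mutant or normal, and keeps it from its effectors. ERK activates genes within minutes, among them its own brakes (the dual-specificity phosphatases and the Sprouty proteins), and through cyclin D and MYC it feeds the slower programs of cell division and cell growth. In myeloid leukaemia cells these programs run beside an arrested path towards monocytes and granulocytes.

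Between 2 h and 24 h, 1516 genes rose and 1423 fell, which is 11.6% and 10.9% of the genes tested. A gene counts as risen or fallen when its Benjamini-Hochberg adjusted p in limma was below 0.05 and its level changed at least 2-fold (a log2 fold change of at least 1 in size). A change of at least 4-fold was reached by 336 of the genes that rose and 308 of those that fell. Levels are given in CPM (counts per 1 M reads of effective library size), in the order of the replicates, which at 24 h are replicates 1, 2 and 4. The 7 libraries had effective sizes of 17.9 to 19.4 M reads, and a first principal component that separated the 2 times took 88.9% of their variance. The 2 h replicate 4 stood apart from the other 2 h libraries on the second component, which took 3.24%, and without it 2940 genes passed. The median log2 fold change of all genes was 0.01, and with library totals as the scale it was 0.11, so changes are read relative to a centre that moves by that much.

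**Figure D1:**
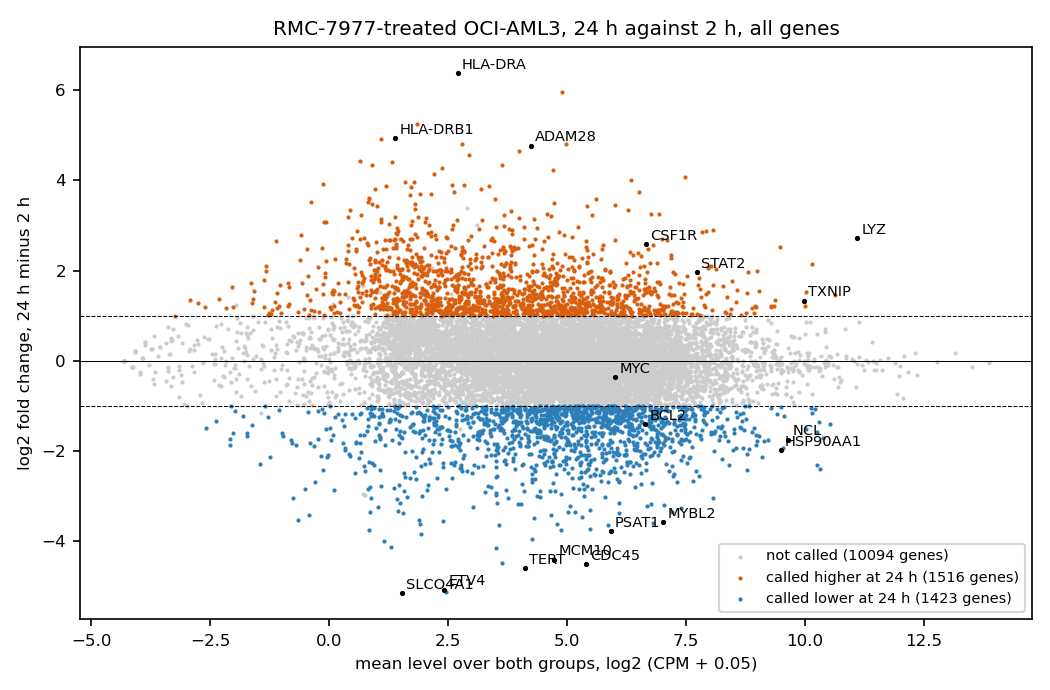
Each point is 1 of 13033 genes, with its mean level over the 2 h and 24 h libraries (log2 of CPM plus a small constant) on the horizontal axis and its log2 fold change, 24 h minus 2 h, on the vertical axis. Orange points are the 1516 genes that rose, blue points the 1423 that fell, and dashed lines mark a 2-fold change.

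Genes of DNA replication fell almost as a block. Of 38 measured genes of replication and S phase, 37 fell, with a median log2 fold change of -2.54, against 10.9% of all genes and a median of 0.01. The remaining member, PRIM2, a subunit of the primase that starts each new strand, had 23.5, 20.9, 20.6 and 21.4 CPM at 2 h and 12.2, 9.81 and 11.1 CPM at 24 h, a log2 fold change of -0.97, which passed without the 24 h replicate 1 (-1.04). CDC45, which joins the MCM ring into the active replicative helicase, showed the largest fall of the group. Its level was 77.4, 79.1, 84.2 and 82.0 CPM at 2 h and 3.23, 3.53 and 3.46 CPM at 24 h (log2 fold change -4.52, SE 0.06, adjusted p 5.4e-32). In DMSO it was 108, 93.6, 99.2 and 92.8 CPM, so the 2 h libraries lay a little under the solvent level and the 24 h libraries far below both. MCM10, a partner of CDC45 at the firing origin, went from 48.6, 53.6, 54.1 and 46.9 CPM to 1.95, 2.40 and 2.49 CPM (log2 fold change -4.42, SE 0.07, adjusted p 1.1e-29). CDC6, which loads the MCM ring onto origins, stood at 58.4, 53.1, 56.4 and 50.7 CPM at 2 h and 3.40, 4.23 and 4.14 CPM at 24 h (log2 fold change -3.77, SE 0.06, adjusted p 2.9e-29). In all 3 genes the 2 groups were more than 10-fold apart at their closest libraries.

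The enzymes that supply and handle nucleotides moved with the origin factors. RRM2, the regulated subunit of ribonucleotide reductase, had 177, 187, 175 and 196 CPM in DMSO, 98.8, 98.9, 101 and 94.9 CPM at 2 h and 12.1, 11.85 and 11.7 CPM at 24 h, with a log2 fold change of -3.04 between the 2 times. It was already lower at 2 h than in DMSO and lower again at 24 h. TYMS, which makes thymidylate, was 241, 236, 229 and 240.2 CPM at 2 h and 23.5, 24.6 and 29.1 CPM at 24 h (log2 fold change -3.20, SE 0.05). MCM2, a subunit of the helicase ring, gave 302, 310.2, 300.1 and 312 CPM and then 31.6, 30.3 and 32.8 CPM (log2 fold change -3.27, SE 0.05). MCM5 (log2 fold change -2.57, SE 0.06) and PCNA, the sliding clamp of the polymerases (log2 fold change -2.52, SE 0.05), fell as well.

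Mitotic genes fell as well. Of 40 measured, 38 fell (95%, against 10.9% of all genes), with a median of -2.10. MYBL2, a transcription factor of the complex that switches on G2 and M phase genes, had the largest fall, from 234, 237, 227 and 263 CPM at 2 h to 20.2, 19.3 and 19.8 CPM at 24 h (log2 fold change -3.59, SE 0.05, adjusted p 2.0e-31). SPC25, part of the NDC80 complex that ties kinetochores to microtubules, was 26.9, 28.5, 29.2 and 27.7 CPM and then 2.73, 2.62 and 3.81 CPM (log2 fold change -3.18, SE 0.10, adjusted p 4.8e-23). MAD2L1, the spindle checkpoint protein, was 89.4, 95.9, 86.3 and 81.7 CPM and then 13.4, 16.6 and 15.6 CPM (log2 fold change -2.53, SE 0.07, adjusted p 1.4e-24). No 24 h library reached the level of any 2 h library in these 3 genes. CCNB1 and its kinase CDK1, which together drive entry into mitosis, had log2 fold changes of -2.03 and -2.11. The proliferation marker MKI67 stood at 424, 429.9, 466 and 422 CPM and then 106, 108 and 112 CPM (log2 fold change -2, SE 0.06), and in DMSO at 453, 466, 398 and 495 CPM. Unlike RRM2, MKI67 was near its DMSO level at 2 h. The members that did not pass were BUB3, a checkpoint protein (log2 fold change -0.95, SE 0.04), and CDC25B, a phosphatase that activates CDK1 (log2 fold change -0.63, SE 0.06).

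Promoters of some members are shown because the replication and mitosis genes moved as groups. Both groups are known for short promoter elements: E2F sites in S phase genes, and a CCAAT box with a cell cycle homology region in mitotic genes. SPC25, MAD2L1 and CDC6 were picked for large falls among members that hold the searched motifs, so each holds them by choice. Each is the RefSeq promoter window of GRCh38.p14, 250 bases before to 50 after the annotated start, printed 5′ to 3′ on the strand of the gene, with the searched motifs in capitals. The motifs were CCAAT and TTTGAA for the mitosis genes and TTTCCCGC or TTTGGCGC for the S phase genes, searched on both strands, and ATTGG in capitals is CCAAT on the other strand. SPC25 lies at chr2:168890381-168890680, minus strand, MAD2L1 at chr4:120066799-120067098, minus strand, and CDC6 at chr17:40287629-40287928, plus strand.
SPC25: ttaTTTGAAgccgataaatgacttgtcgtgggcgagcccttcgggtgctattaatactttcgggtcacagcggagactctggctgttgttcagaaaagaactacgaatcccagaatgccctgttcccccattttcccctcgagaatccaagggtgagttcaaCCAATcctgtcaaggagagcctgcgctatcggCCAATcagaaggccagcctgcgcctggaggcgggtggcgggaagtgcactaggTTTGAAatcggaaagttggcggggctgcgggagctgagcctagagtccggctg
MAD2L1: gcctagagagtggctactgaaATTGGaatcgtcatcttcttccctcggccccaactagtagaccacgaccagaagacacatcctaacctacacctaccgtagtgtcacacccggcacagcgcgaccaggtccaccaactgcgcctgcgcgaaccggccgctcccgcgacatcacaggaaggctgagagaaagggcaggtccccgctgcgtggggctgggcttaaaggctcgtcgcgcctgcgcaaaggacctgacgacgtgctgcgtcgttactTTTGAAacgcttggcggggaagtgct
CDC6: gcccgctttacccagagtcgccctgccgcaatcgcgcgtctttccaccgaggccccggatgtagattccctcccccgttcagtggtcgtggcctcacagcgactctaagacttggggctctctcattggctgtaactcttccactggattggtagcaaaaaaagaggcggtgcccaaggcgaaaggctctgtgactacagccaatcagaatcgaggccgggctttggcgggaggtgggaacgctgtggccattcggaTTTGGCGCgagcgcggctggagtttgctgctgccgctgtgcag
In SPC25 the CCAAT motifs begin 88 and 56 bases before the start, and 1 of its TTTGAA motifs begins 3 bases before it. In MAD2L1 the TTTGAA begins 24 bases after the start, and in CDC6 the TTTGGCGC begins 7 bases after it. Of 33 mitosis members with a window in the table, 18 (54.5%) held both CCAAT and TTTGAA, while 6.08% of all 27305 windows and 4.22% of the 10440 windows of measured genes did. Of 33 S phase members with a window, 17 (51.5%) held TTTCCCGC or TTTGGCGC, compared with 2.31% of all windows and 3.73% of those of measured genes. A match is a description of the letters, not evidence of a bound factor.

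Repair genes that act on replicating DNA followed. Of 25 measured genes of homologous recombination and the Fanconi pathway, 19 fell (76%, against 10.9% of all genes), with a median of -1.88. EXO1, the nuclease that resects DNA ends, was 73.2, 73.8, 75.4 and 70.9 CPM at 2 h and 6.96, 6.25 and 6.25 CPM at 24 h (log2 fold change -3.48, SE 0.05, adjusted p 4.8e-30). BRCA1, which directs recombination, was 96.5, 104, 102 and 96.4 CPM and then 15.0, 15.2 and 15.8 CPM (log2 fold change -2.69, SE 0.05). BRCA2, which acts in the same pathway, had a log2 fold change of -2.39. FANCF, an adaptor of the Fanconi core complex, was the 1 member with a positive value, 0.56, and did not reach 2-fold. The call of FANCC ended at the other 2 scalings, with a pseudocount of 1 CPM and without the 24 h replicate 2.

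In the G1 machinery, several genes that push the cell into S phase fell. A few brakes rose, and other members of both kinds did not pass. Of 24 measured cyclins, kinases, inhibitors and E2F factors, 11 fell and 3 rose, with a median of -0.68. That is 45.8% and 12.5%, against 10.9% and 11.6% of all genes, so the share that rose was near that of all genes. E2F1, the transcription factor that opens the S phase program, was 62.2, 62.7, 62.2 and 75.0 CPM at 2 h and 6.46, 5.61 and 6.75 CPM at 24 h (log2 fold change -3.36, SE 0.07, adjusted p 1.8e-26). CDC25A, the phosphatase that activates CDK2, was 74.6, 70.7, 76.7 and 79.7 CPM in DMSO, 31.1, 30.7, 30.2 and 28.2 CPM at 2 h and 4.18, 3.37 and 4.37 CPM at 24 h (log2 fold change -2.89, SE 0.08). CCNE1, the cyclin partner of CDK2, followed the same steps, 33.6, 31.9, 37.3 and 30.6 CPM, then 17.9, 17.5, 17.1 and 19.9 CPM, then 3.96, 4.65 and 3.93 CPM (log2 fold change -2.09, SE 0.08). Both were lower at 2 h than in DMSO, and lower again at 24 h. CDK2 and CDK4 themselves had log2 fold changes of -1.68 and -1.63.

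The 3 members that rose were all CDK inhibitors, while CDKN2C (p18), another one, fell (log2 fold change -1.70, SE 0.05). CDKN1C (p57) was 0.255, 0.139, 0.179 and 0.296 CPM in DMSO, 5.13, 5.12, 5.49 and 6.12 CPM at 2 h and 33.6, 32.6 and 32.5 CPM at 24 h (log2 fold change 2.57, SE 0.30, adjusted p 7.2e-09). The 3 groups did not overlap and went up in steps. CDKN1A (p21) was 25.4, 26.9, 23.6 and 27.1 CPM at 2 h and 61.2, 61.7 and 62.3 CPM at 24 h (log2 fold change 1.26, SE 0.05), with 25.9, 27.9, 27.2 and 25.3 CPM in DMSO. CDKN2B (p15) was 5.24, 7.22, 6.98 and 6.72 CPM and then 15.8, 13.0 and 16.6 CPM (log2 fold change 1.20, SE 0.23). CDKN1B (p27), known as a brake raised when growth signals stop, was 105, 104, 101 and 98.5 CPM at 2 h and 87.6, 94.2 and 102 CPM at 24 h, a log2 fold change of -0.12 with overlapping groups. CCND3, a D cyclin, had 274, 243, 269 and 236 CPM in DMSO, 74.2, 77.8, 78.2 and 83.5 CPM at 2 h and 137, 132 and 133 CPM at 24 h, so the 24 h level lay between the others, but its log2 fold change of 0.78 was under the 2-fold limit.

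**Figure D2:**
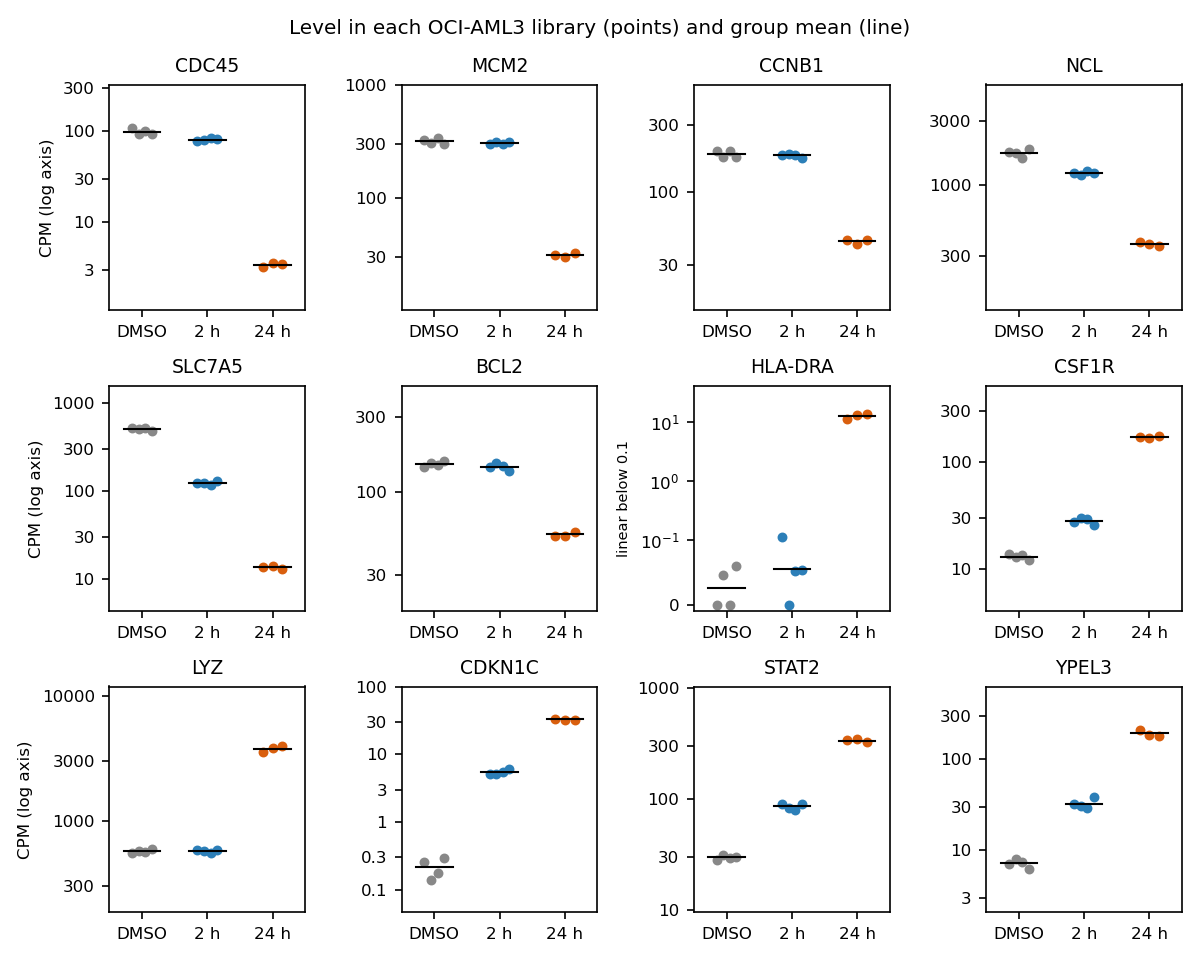
Level in CPM (log axis, linear below 0.1 for HLA-DRA) of 12 genes in each OCI-AML3 library, with points for libraries, a line for the group mean, and groups DMSO, 2 h and 24 h of RMC-7977 from left to right. CDC45, MCM2, CCNB1 and BCL2 are near their DMSO level at 2 h and low at 24 h, NCL and SLC7A5 are lower at both times, and CDKN1C, STAT2 and YPEL3 go up in steps.

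MYC itself differed by less than 2-fold between the 2 times, while most of the ribosome assembly genes that it is known to drive fell. MYC was 382, 372, 381 and 362 CPM in DMSO, 69.3, 70.2, 70.0 and 79.7 CPM at 2 h and 58.3, 56.0 and 54.1 CPM at 24 h. Its log2 fold change between the 2 times was -0.36 (adjusted p 2.6e-08), under the 2-fold limit, and the low level was in place at 2 h. Of 39 measured genes of the MYC and ribosome biogenesis list, 27 fell (69.2%, against 10.9% of all genes), with a median of -1.26. NCL (nucleolin), an abundant protein of the nucleolus, was 1241, 1187, 1282 and 1235 CPM at 2 h and 377, 368 and 354 CPM at 24 h (log2 fold change -1.75, SE 0.05, adjusted p 5.3e-23). ODC1, which starts polyamine synthesis, was 187, 196, 189 and 189 CPM and then 27.6, 27.9 and 30.7 CPM (log2 fold change -2.73, SE 0.05). NOLC1, a nucleolar scaffold, was 270.0, 277, 267 and 291 CPM in DMSO, 149.9, 148, 145 and 148 CPM at 2 h and 34.7, 41.2 and 34.0 CPM at 24 h (log2 fold change -2.02, SE 0.05). The 3 levels of NOLC1 do not overlap. SRM, the next enzyme of polyamine synthesis, and the paired mitochondrial chaperones HSPD1 and HSPE1 had log2 fold changes of -1.98, -2.06 and -2.47. NPM1 (nucleophosmin) at -0.74 did not reach 2-fold. The call of RRS1, at -1.02, ended with 4 of the alternative settings.

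The proteins of the ribosome stayed close to the centre of all genes. None of 40 measured cytosolic ribosomal protein genes passed in limma or in limma voom on recovered reads, and the median was -0.09. At an unadjusted p below 0.05, 21 were lower and 1 was higher, against 39.6% and 39.2% of all genes. The range ran from -0.59 to 0.12. In the mitochondrial respiratory chain 7 of 36 measured subunits fell (19.4%, against 10.9% of all genes), with a median of -0.71. At an adjusted p below 0.05 in limma, 35 of 36 had negative values, against 39.1% of all genes. ATP5MC1, part of the rotor of ATP synthase, fell most, from 73.0, 72.7, 68.4 and 69.3 CPM to 17.8, 15.4 and 16.1 CPM (log2 fold change -2.10, SE 0.06). COX7B of cytochrome oxidase had a log2 fold change of -1.41. With library totals as the scale, 4 of the 7 passed.

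Many amino acid supply genes of the integrated stress response, the program of the factor ATF4, fell. Of 28 measured, 12 fell and 2 rose, with a median of -0.42. That is 42.9% and 7.14%, against 10.9% and 11.6% of all genes, so the share that rose was under that of all genes. PSAT1, an enzyme of serine synthesis, was 116, 113, 115 and 107 CPM at 2 h and 8.36, 8.25 and 7.63 CPM at 24 h (log2 fold change -3.78, SE 0.04, adjusted p 8.6e-33). PHGDH, the first enzyme of the same path, was 190.4, 173, 182 and 198 CPM and then 19.6, 18.7 and 20.5 CPM (log2 fold change -3.23, SE 0.05). SLC7A5, the transporter of large neutral amino acids, went down in 2 steps, with 522, 508, 510.0 and 483 CPM in DMSO, 122, 122, 117 and 128 CPM at 2 h and 13.7, 14.2 and 12.8 CPM at 24 h (log2 fold change -3.16, SE 0.05). ASNS, which makes asparagine, had a log2 fold change of -1.67. SLC7A11, the cystine importer, rose instead, from 20.7, 22.0, 22.8 and 17.6 CPM to 69.3, 67.3 and 72.9 CPM (log2 fold change 1.75, SE 0.09, adjusted p 1.8e-16). CEBPB, a bZIP transcription factor that is also known from macrophages, was the other member that rose (log2 fold change 1.48, SE 0.07).

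Most chaperones fell. Of 24 measured heat shock and chaperone genes, 15 fell and 1 rose, with a median of -1.23. These are 62.5% and 4.17%, against 10.9% and 11.6% of all genes. HSP90AA1, the inducible cytosolic HSP90, was 1798, 1878, 1915 and 1920.0 CPM in DMSO, 1172, 1201, 1162 and 1059 CPM at 2 h and 278, 277 and 307 CPM at 24 h (log2 fold change -1.997, SE 0.05). HSPA8, the constitutive HSP70, had 2848, 2706, 2917 and 2685 CPM, 1194, 1217, 1174 and 1114 CPM and 305, 301 and 309 CPM in the same order (log2 fold change -1.94, SE 0.04). Both were lower at 2 h than in DMSO and lower still at 24 h. HSPA5 (BiP) and CALR (calreticulin) of the endoplasmic reticulum had log2 fold changes of -1.67 and -1.88. HSPA6, a strictly inducible HSP70, rose from 6.66, 7.36, 8.05 and 7.60 CPM to 88.7, 91.4 and 90.5 CPM (log2 fold change 3.59, SE 0.12), and its reads could be split with the near-identical HSPA7.

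Lipid and sugar metabolism showed mixed changes. Of 26 measured genes of sterol and fatty acid synthesis, 8 fell (30.8%, against 10.9% of all genes), with a median of -0.55. SCD, which desaturates fatty acids, was 361, 366, 355 and 324 CPM at 2 h and 62.9, 64.5 and 65.1 CPM at 24 h (log2 fold change -2.45, SE 0.04, adjusted p 5.3e-29). FASN (fatty acid synthase) was 1098, 1053, 1038 and 938 CPM in DMSO, 625, 644, 639 and 725 CPM at 2 h and 178, 166 and 169.6 CPM at 24 h (log2 fold change -1.94, SE 0.07). Of 24 measured glycolysis genes, 9 fell and 2 rose, with a median of -0.77. That is 37.5% and 8.33%, and the share that rose was under the 11.6% of all genes. LDHA, which turns pyruvate into lactate, was 896, 883, 862 and 844 CPM and then 249.8, 250.2 and 256 CPM (log2 fold change -1.79, SE 0.04). The genes that rose were HK2, the hexokinase of the mitochondrial surface, from 74.6, 77.6, 84.9 and 76.2 CPM to 283, 286 and 295 CPM with 141, 144, 138 and 148 CPM in DMSO (log2 fold change 1.88, SE 0.05), and PFKFB3, which makes the activator of phosphofructokinase (log2 fold change 1.27, SE 0.05). HK2 was lower at 2 h than in DMSO and higher than DMSO at 24 h.

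**Figure D3:**
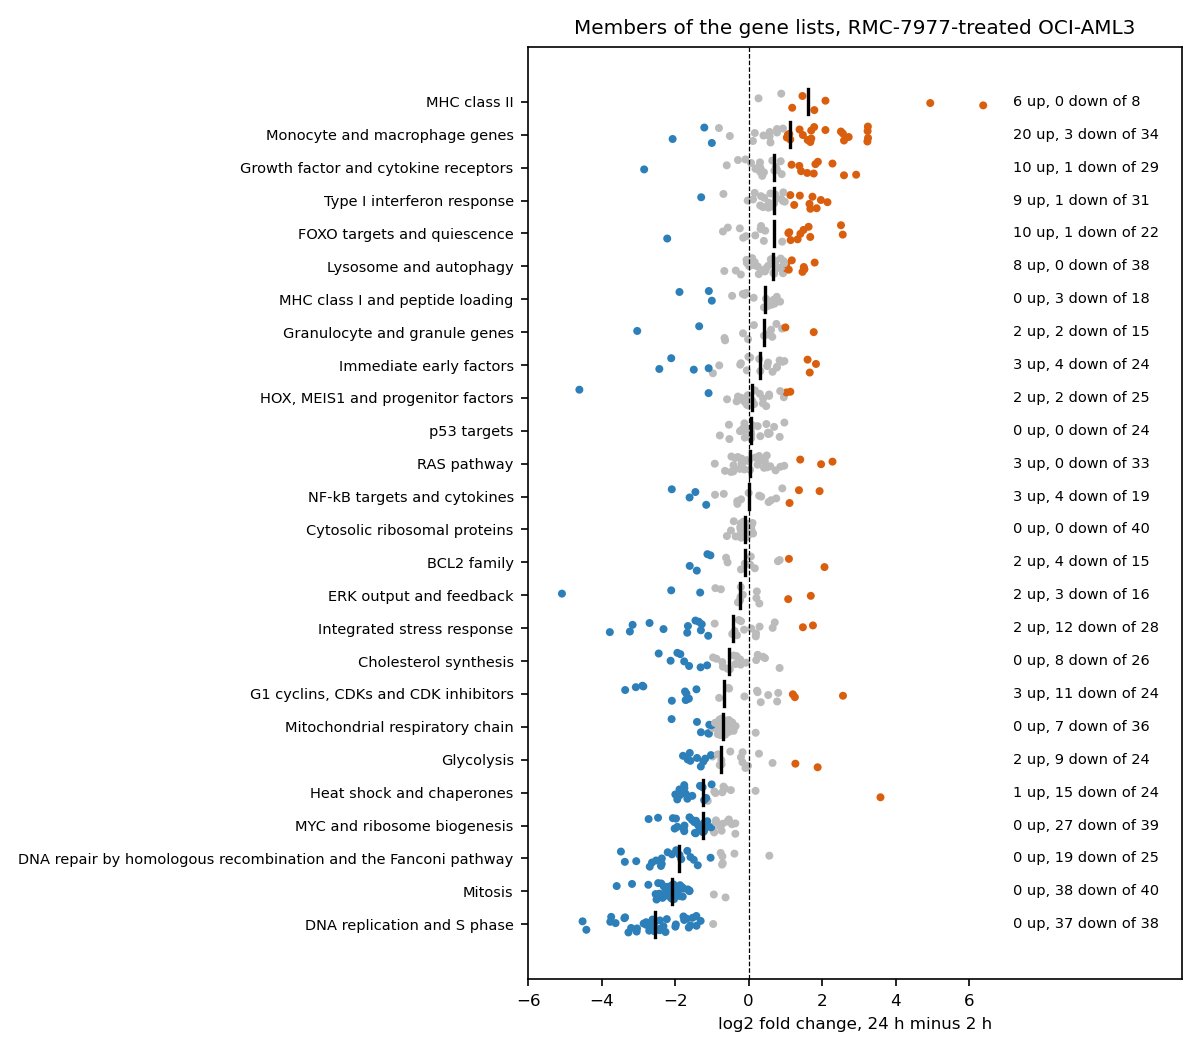
Log2 fold change, 24 h minus 2 h, of each measured member (points) of the gene lists with at least 8 measured members, with a bar at each list's median, orange for members that rose and blue for those that fell; the dashed line is the median of all genes. Replication, mitosis and repair sit at the bottom with medians of -2.54, -2.10 and -1.88, and MHC class II and the monocyte genes at the top with 1.63 and 1.12.

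Among single genes, some of the largest falls outside the lists described so far were of several kinds. SLCO4A1, an organic anion transporter of the cell surface (chr20:62642503-62690740), was 33.5, 33.3, 31.0 and 25.4 CPM in DMSO, 6.24, 5.67, 5.13 and 5.48 CPM at 2 h and 0.0557, 0.0534 and 0.0553 CPM at 24 h. That is 417 reads over the 2 h libraries and 3 over the 24 h libraries, a 102.5-fold lower level with an exact 95% interval of 34.8 to 499 that covers counting error only. CTXN1 (cortexin 1, a small membrane protein, chr19:7924491-7926135) was 9.30, 9.54, 10.6 and 13.1 CPM at 2 h and 0.111, 0.374 and 0.166 CPM at 24 h (log2 fold change -5.13, SE 0.23, adjusted p 8.0e-19). HSD11B1, which regenerates active cortisol (chr1:209686179-209734929), was 53.9, 54.1, 55.1 and 53.3 CPM in DMSO, 24.6, 26.1, 24.1 and 20.3 CPM at 2 h and 1.003, 0.748 and 1.16 CPM at 24 h (log2 fold change -4.49, SE 0.12). HSD11B1 stepped down at both times. GAL, the precursor of the peptide galanin, was 35.9, 33.5, 35.4 and 39.2 CPM and then 2.51, 1.92 and 2.20 CPM (log2 fold change -3.97, SE 0.08). RNF157, a ubiquitin ligase, had a log2 fold change of -3.85, and AKR1C2, an aldo-keto reductase whose reads could be split with AKR1C1, one of -4.17. TERT, the catalytic subunit of telomerase (chr5:1253167-1295068), was 119, 118, 114 and 107 CPM in DMSO, 30.6, 32.2, 34.4 and 36.2 CPM at 2 h and 1.15, 1.02 and 1.71 CPM at 24 h (log2 fold change -4.61, SE 0.12, adjusted p 5.5e-25). TERT had its levels in 3 groups that did not overlap, each lower than the one before.

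The largest rises were led by a gene of antigen presentation. HLA-DRA, the alpha chain of the MHC class II molecule HLA-DR (chr6:32439887-32445046), was 0.111, 0, 0.0513 and 0.0542 CPM at 2 h and 11.4, 13.0 and 14 CPM at 24 h (log2 fold change 6.39, SE 0.26, adjusted p 9.1e-20). That is 4 reads over the 4 libraries at 2 h and 702 over the 3 at 24 h. HLA-DRB1, the beta chain (chr6:32578775-32589848), was 0.111, 0.109, 0 and 0.0542 CPM and then 5.84, 5.23 and 4.15 CPM (log2 fold change 4.95, SE 0.32, adjusted p 1.4e-14). Both genes were near 0 at 2 h and in DMSO, and all 3 late libraries carried them. MHC class II molecules present peptides to helper T cells and are controlled by the coactivator CIITA. CIITA was 4.25, 4.31, 5.39 and 4.73 CPM in DMSO, 7.97, 5.59, 7.59 and 7.64 CPM at 2 h and 24.6, 26.5 and 23.6 CPM at 24 h (log2 fold change 1.79, SE 0.11). CD74, the invariant chain that guards the binding groove, was 105, 103, 102 and 115 CPM and then 260.2, 233 and 232 CPM (log2 fold change 1.19, SE 0.05). HLA-DMA, which helps to load peptides, and CTSS, the protease that trims CD74, had log2 fold changes of 2.09 and 1.47. Of 15 genes on the list 8 were measured, and 6 of these rose, with a median of 1.63, against 11.6% of all genes. Members such as HLA-DPA1 and HLA-DQA1 were not analysed here. HLA-DRA and HLA-DRB1 had almost no reads in OCI-AML3 before 24 h, so which members count as measured may depend on their late level. The share is a description of the measured members only. MHC class I differed: of 18 measured genes of class I and peptide loading, 3 fell (CALR, PDIA3 and TAP2), with a median of 0.44. That is 16.7%, against 10.9% of all genes. With library totals as the scale PDIA3 and TAP2 did not pass, and the call of TAP2 ended also with the median of ratios, with a pseudocount of 1 CPM and without each of 3 libraries in turn.

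The other large rises came from genes of unlike function. ADAM28, a membrane metalloprotease known from lymphoid and myeloid cells, was 1.11, 1.09, 1.39 and 1.35 CPM at 2 h and 35.5, 39.4 and 34.5 CPM at 24 h (log2 fold change 4.77, SE 0.19, adjusted p 4.0e-20). JPH2 (junctophilin 2), a membrane-tethering protein known from heart muscle, was 0.0557, 0.0545, 0 and 0.325 CPM and then 7.24, 6.84 and 6.80 CPM (log2 fold change 5.26, SE 0.29). AGXT, a peroxisomal aminotransferase known from liver, was 1.39, 0.626, 1.37 and 1.001 CPM and then 24.4, 24.4 and 21.6 CPM (log2 fold change 4.35, SE 0.26). These 3 genes were low at 2 h and in DMSO, with means of 1.19, 0.0255 and 0.858 CPM in DMSO. MUC20, a membrane mucin (log2 fold change 4.82, SE 0.28), and SSPOP, a pseudogene of the SCO-spondin gene (log2 fold change 4.803, SE 0.34), were also among the 10 largest rises. The histone genes H2AC19 and H4C14 and the uroplakin-like gene UPK3BL2 had fitted values of 5.96, 4.66 and 4.56, and each has a near-identical copy that could share its reads. For UPK3BL2, fitting only the 7 libraries gave an adjusted p of 0.056, so its call ended there.

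Many monocyte and macrophage genes rose. Of 34 measured, 20 rose and 3 fell (58.8% and 8.82%, against 11.6% and 10.9% of all genes), with a median of 1.12. LYZ (lysozyme), an abundant product of monocytes, was 559, 571, 566 and 599 CPM in DMSO, 586, 572, 556 and 582 CPM at 2 h and 3584, 3818 and 3976 CPM at 24 h (log2 fold change 2.72, SE 0.05, adjusted p 5.9e-29). CSF1R, the receptor for macrophage colony-stimulating factor, was 13.8, 13.1, 13.5 and 12.1 CPM in DMSO, 27.7, 30.5, 29.5 and 26.2 CPM at 2 h and 174, 168 and 175 CPM at 24 h (log2 fold change 2.60, SE 0.06, adjusted p 1.2e-25). LYZ was at its DMSO level at 2 h, and CSF1R was already above it. PLD4, a lysosomal nuclease of phagocytes and dendritic cells, was 4.45, 3.19, 4.91 and 3.79 CPM in DMSO, 19.5, 21.9, 20.9 and 20.2 CPM at 2 h and 203, 200.2 and 186 CPM at 24 h (log2 fold change 3.25, SE 0.09). S100A8, a calcium-binding alarmin, was 8.08, 9.69, 9.18 and 8.07 CPM and then 85.4, 80.8 and 83.8 CPM (log2 fold change 3.24, SE 0.10), and its partner S100A9 had a log2 fold change of 1.70. TYROBP, an adaptor of activating receptors (log2 fold change 2.57, SE 0.09), the costimulator CD86 (log2 fold change 3.23, SE 0.18) and VCAN (versican), a matrix proteoglycan of monocytes (log2 fold change 2.51, SE 0.14), rose as well. The Fc receptor genes went apart. FCGR2B was 23.4, 21.8, 24.5 and 22.6 CPM and then 217, 222 and 221 CPM (log2 fold change 3.25, SE 0.08), with reads that could be split with FCGR2A and FCGR2C. FCGR1A, the high-affinity receptor, fell from 23.9, 25.0, 24.5 and 22.5 CPM to 5.02, 5.29 and 6.69 CPM (log2 fold change -2.07, SE 0.08). NCF1 of the phagocyte oxidase fell as well, and CD14 was 0.390, 0.490, 0.410 and 0.596 CPM and then 0.0557, 0.427 and 0.166 CPM with overlapping groups. The call of CD14 at -1.003 (adjusted p 0.016) ended with a pseudocount of 1 CPM, at both other scalings and without each of 4 of the 7 libraries in turn. The lineage regulators SPI1 (PU.1) and IRF8 had log2 fold changes of 0.40 and -0.51, under the 2-fold limit.

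Few granulocyte and stem cell genes passed. Of 15 measured granulocyte and granule genes, 2 rose and 2 fell (13.3% each, near the 11.6% and 10.9% of all genes), with a median of 0.42. CSF3R, the receptor of granulocyte colony-stimulating factor, was 162, 155, 158 and 163 CPM and then 568, 539.9 and 529 CPM (log2 fold change 1.77, SE 0.05). MMP9 (gelatinase B) fell from 5.85, 5.12, 5.31 and 5.64 CPM to 0.669, 0.641 and 0.442 CPM (log2 fold change -3.04, SE 0.31), while ELANE (neutrophil elastase) had a log2 fold change of -0.02. S100P had 18 reads over the 2 h libraries and 2 over the 24 h libraries, 6.64-fold lower with an exact 95% interval of 1.59 to 59.0, a call that was lost at a pseudocount of 1 CPM. RNASE3 lost its call with a pseudocount of 1 CPM and without each of 3 libraries in turn. In the HOX, MEIS1 and progenitor list, LMO2 and TAL1 rose and ERG and TERT fell, of 25 measured, with a median of 0.09. That is 8% each way, under the 11.6% and 10.9% of all genes. The calls of TAL1 and ERG ended with a pseudocount of 1 CPM, and that of ERG also with library totals and without the 24 h replicate 2. HOXA9, MEIS1, MYB and CD34 had log2 fold changes of 0.39, -0.20, -0.29 and 0.56.

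Markers of other lineages were few. Of 19 lymphoid markers 5 were measured, and their summed level was 6.35 to 7.81 CPM at 2 h and 5.14 to 8.90 CPM at 24 h, with 1 riser (EBF1) and 1 faller (IL7R). Of 17 erythroid and platelet markers 3 were measured, summing to 22.5 to 28.5 CPM at 2 h and 44.4 to 48.5 CPM at 24 h, of which ITGA2B and GP1BA rose. Of 15 epithelial and stromal markers 3 were measured, summing to 32.2 to 38.1 CPM at 2 h and 76.6 to 79.8 CPM at 24 h, of which COL1A2 and PECAM1 rose. The calls of EBF1 and COL1A2 ended with a pseudocount of 1 CPM, and that of EBF1 also without the 24 h replicate 4 (limma adjusted p 0.054). The defining markers CD3E, HBB and EPCAM were not analysed here. The part of these markers in the rises of the monocyte and MHC genes was not tested.

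Several receptors for growth factors and cytokines rose. Of 29 measured, 10 rose and 1 fell (34.5% and 3.45%, against 11.6% and 10.9% of all genes), with a median of 0.70. CSF2RA, the ligand-binding chain of the GM-CSF receptor, was 1.64, 1.46, 1.38 and 1.25 CPM in DMSO, 3.23, 3.33, 2.82 and 3.03 CPM at 2 h and 25.3, 25.1 and 22.5 CPM at 24 h (log2 fold change 2.93, SE 0.08, adjusted p 1.5e-23). IL3RA, the corresponding chain of the IL-3 receptor, was 6.13, 6.78, 6.76 and 6.95 CPM and then 19.3, 21.9 and 19.8 CPM (log2 fold change 1.59, SE 0.07). The tyrosine kinases FGFR1, from 13.5, 11.3, 13.6 and 12.4 CPM to 47.3, 49.2 and 44.6 CPM (log2 fold change 1.88, SE 0.07), and MERTK (log2 fold change 2.28, SE 0.34) rose too. FLT3, the receptor that is mutated in Molm-14, was 61.7, 58.0, 61.4 and 60.6 CPM in DMSO, 132, 136, 136 and 122 CPM at 2 h and 164, 173 and 174 CPM at 24 h. The larger step lay between DMSO and 2 h, and the log2 fold change between the 2 times was 0.37. IL7R, the interleukin 7 receptor, fell from 3.34, 2.997, 3.31 and 2.60 CPM to 0.501, 0.214 and 0.332 CPM (log2 fold change -2.85, SE 0.15).

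The RAS genes NRAS and HRAS did not reach 2-fold. NRAS was 95.5, 98.2, 92.5 and 85.4 CPM at 2 h and 67.3, 69.9 and 71.1 CPM at 24 h. Its log2 fold change was -0.42, and that of HRAS was -0.64; in both the late libraries lay below all early ones. Of 33 measured genes of the pathway from receptors to ERK, 3 rose (9.09%, near the 11.6% of all genes), with a median of 0.04. They were GAB2, a docking protein at receptors, from 12.9, 13.4, 14.2 and 13.5 CPM to 64.2, 63.1 and 70.5 CPM (log2 fold change 2.28, SE 0.07), RASGRP4, an exchange factor that loads RAS with GTP, from 23.7, 25.1, 23.6 and 24.7 CPM to 99.3, 95.6 and 91.9 CPM (log2 fold change 1.97, SE 0.06), and KSR1, a scaffold for RAF and MEK (log2 fold change 1.40, SE 0.06). PTPN11, the phosphatase SHP2 that acts upstream of RAS, had a log2 fold change of -0.92.

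Most direct output genes of ERK did not reach 2-fold between 2 h and 24 h. Of 16 measured output and feedback genes, 3 fell and 2 rose, with a median of -0.23, against 10.9% and 11.6% of all genes. DUSP6, the phosphatase that switches off ERK, was 9.86, 11.96, 13.2 and 12.3 CPM in DMSO, 0.111, 0.218, 0.205 and 0.271 CPM at 2 h and 0.124, 0.0534 and 0.332 CPM at 24 h. The treated groups overlapped, with a log2 fold change of -0.26 (adjusted p 0.27), at levels far below DMSO. SPRY2, a Sprouty feedback inhibitor, was 54.0, 56.5, 58.9 and 57.6 CPM, 14.7, 13.0, 12.9 and 13.8 CPM and 10.9, 12.02 and 11.7 CPM in the same order, a log2 fold change of -0.23 between the 2 times. EGR1, an early ERK target, was 3.01, 3.22, 2.98 and 3.85 CPM and then 2.51, 1.18 and 1.604 CPM (log2 fold change -0.91, SE 0.21), short of 2-fold except without the 24 h replicate 1, where the value was -1.18.

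ETV4 and ETV5, ETS factors that carry ERK signals to chromatin, fell further, as did cyclin D1. ETV4 was 21.4, 18.6, 20.2 and 17.4 CPM in DMSO, 9.75, 9.32, 9.78 and 12.4 CPM at 2 h and 0.223, 0.0534 and 0.442 CPM at 24 h (log2 fold change -5.08, SE 0.25, adjusted p 3.9e-14). CCND1 (cyclin D1) was 64.2, 65.8, 63.9 and 64.0 CPM in DMSO, 1.84, 1.80, 2.62 and 2.38 CPM at 2 h and 0.573, 0.277 and 0.435 CPM at 24 h (log2 fold change -2.11, SE 0.14, adjusted p 2.4e-14). In proportion, the larger step of CCND1 lay between DMSO and 2 h, and that of ETV4 between 2 h and 24 h. ETV5 was 1.504, 1.91, 1.49 and 1.79 CPM and then 0.446, 0.962 and 0.498 CPM (log2 fold change -1.32, SE 0.16). SPRY4, another Sprouty gene, was 38.3, 41.1, 39.0 and 36.9 CPM in DMSO, 0.613, 0.926, 0.616 and 0.488 CPM at 2 h and 1.56, 1.28 and 1.604 CPM at 24 h, so it rose between the 2 times (log2 fold change 1.08, SE 0.21) and stayed far below DMSO. SPRED3, a related inhibitor of low level, rose as well (log2 fold change 1.69, SE 0.26). With a pseudocount of 1 CPM the calls of SPRY4, SPRED3 and ETV5 ended at 0.58, 0.80 and -0.72, and that of SPRY4 ended also without the 2 h replicate 4, at 0.96.

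Immediate early factors are the first genes switched on by growth signals. Of 24 measured, 3 rose and 4 fell (12.5% and 16.7%, near the 11.6% and 10.9% of all genes), with a median of 0.30. With library totals 5 rose, and with a pseudocount of 1 CPM or a filter at a mean of 1 CPM 1 fell. FOSL2, a subunit of the AP-1 factor, was 144, 149, 152 and 147 CPM and then 472, 462 and 473 CPM (log2 fold change 1.66, SE 0.05). KLF4, a zinc finger factor of monocytes among other cells, was 22.7, 24.3, 24.6 and 22.0 CPM and then 82.0, 80.7 and 87.9 CPM (log2 fold change 1.83, SE 0.10). DUSP2, a nuclear phosphatase of MAP kinases, fell from 1.34, 1.58, 1.49 and 1.3 CPM to 0.334, 0.160 and 0.277 CPM (log2 fold change -2.11, SE 0.13), with 17.7, 13.2, 18.4 and 14.6 CPM in DMSO. EGR4 had a log2 fold change of -2.43. EGR3 had 17 reads over the 2 h libraries and 0 over the 24 h libraries, at least 4.18-fold lower against a floor of 3 counts over the group. NR4A1, an orphan nuclear receptor, was 9.91, 9.97, 9.09 and 10.5 CPM and then 4.28, 5.63 and 3.97 CPM. With a pseudocount of 1 CPM the calls of EGR3, DUSP2 and NR4A1 (-0.29, -0.95 and -0.96) ended, and that of NR4A1 ended also with library totals and without the 24 h replicate 4 (-0.99 in both).

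Several interferon response genes rose. Of 31 measured, 9 rose and 1 fell, with a median of 0.69. These are 29.03% and 3.23%, against 11.6% and 10.9% of all genes. STAT2, the subunit specific to the type I interferon signal, was 28.5, 31.2, 29.2 and 30.0 CPM in DMSO, 90.6, 83.0, 80.4 and 90.9 CPM at 2 h and 339, 346 and 326 CPM at 24 h (log2 fold change 1.97, SE 0.05, adjusted p 5.1e-24). OAS1, a sensor of double-stranded RNA, was 7.97, 8.02, 8.44 and 8.13 CPM and then 37.4, 37.9 and 33.9 CPM (log2 fold change 2.15, SE 0.10). STAT2 and OAS1 were already above DMSO at 2 h. RSAD2 (viperin), an antiviral enzyme, was 1.84, 2.22, 1.92 and 1.90 CPM in DMSO, 5.96, 5.23, 3.90 and 5.36 CPM at 2 h and 15.4, 16.4 and 19.8 CPM at 24 h (log2 fold change 1.74, SE 0.19). IRF9, which joins STAT2 in a DNA-binding complex, had a log2 fold change of 0.74. USP18, which damps the interferon receptor, fell from 3.56, 2.81, 3.10 and 3.86 CPM to 0.711, 1.44 and 2.04 CPM (log2 fold change -1.29, SE 0.19), a call that was lost when 1 CPM was used as the pseudocount (-0.89) or the 24 h replicate 1 was left out (-0.91).

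The RSAD2 promoter is shown for the interferon-stimulated element, searched as GAAANNGAA on both strands. RSAD2 was picked among the risers that hold this motif, so its match is by choice. The printed sequence is the RefSeq window of GRCh38.p14 at chr2:6865635-6865934, plus strand, with the match in capitals.
RSAD2: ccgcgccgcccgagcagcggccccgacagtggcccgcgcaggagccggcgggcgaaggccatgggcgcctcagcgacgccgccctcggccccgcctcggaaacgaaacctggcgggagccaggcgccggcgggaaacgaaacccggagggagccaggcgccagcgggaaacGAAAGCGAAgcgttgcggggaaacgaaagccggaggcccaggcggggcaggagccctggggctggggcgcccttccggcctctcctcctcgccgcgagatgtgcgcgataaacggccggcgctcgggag
The match begins 79 bases before the start. Of 24 interferon list members with a window, 14 (58.3%) held GAAANNGAA, against 8.29% of all windows and 6.67% of those of measured genes. As above, the match describes letters only.

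FOXO targets and genes of quiescence, which rest under active growth signalling, rose in part. Of 22 measured, 10 rose and 1 fell (45.5% and 4.55%, against 11.6% and 10.9% of all genes), with a median of 0.68. YPEL3, a small zinc-binding protein tied to growth arrest, was 7.14, 8.003, 7.42 and 6.22 CPM in DMSO, 32.2, 30.4, 29.0 and 38.2 CPM at 2 h and 209, 185 and 180.4 CPM at 24 h (log2 fold change 2.56, SE 0.31, adjusted p 3.2e-08). TXNIP, an arrestin that limits glucose uptake, was 178, 175, 181 and 179.7 CPM, 576, 576, 572 and 563 CPM and 1400.0, 1444 and 1481 CPM in the same order (log2 fold change 1.33, SE 0.04). PDK4, which turns pyruvate away from oxidation, was 2.81, 2.82, 3.08 and 2.85 CPM, 12.9, 14.4, 10.8 and 12.1 CPM and 70.9, 70.4 and 74.5 CPM (log2 fold change 2.51, SE 0.18). All 3 were higher at 2 h than in DMSO and higher again at 24 h. CCNG2, an atypical cyclin of resting cells, had 12.8, 14.4, 13.8 and 15.8 CPM in DMSO, 66.3, 71.1, 73.4 and 66.2 CPM at 2 h and 64.0, 62.1 and 71.7 CPM at 24 h, so it was raised at both times with no call between them (log2 fold change -0.07, SE 0.06). ARRDC3, another arrestin, was 3.58, 3.70, 3.35 and 3.38 CPM in DMSO, 22.8, 21.4, 21.7 and 18.5 CPM at 2 h and 4.40, 5.07 and 3.93 CPM at 24 h, and it fell between the 2 times (log2 fold change -2.22, SE 0.09) to near its DMSO level.

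Some lysosome and autophagy genes rose. Of 38 measured, 8 rose (21.05%, against 11.6% of all genes), with a median of 0.66. At an adjusted p below 0.05 in limma, 29 had positive values, against 38.5% of all genes at that rule. GRN (progranulin), a lysosomal regulator, was 528, 524, 525 and 579.7 CPM and then 1613, 1548 and 1471 CPM (log2 fold change 1.52, SE 0.06). PSAP, the precursor of the saposins that present lipids to hydrolases, was 229, 224, 232 and 232 CPM and then 657, 640.4 and 649.9 CPM (log2 fold change 1.501, SE 0.04). GABARAPL1, a protein of the autophagosome membrane, was 15.9, 15.0, 11.9 and 13.7 CPM and then 51.1, 47.2 and 49.1 CPM (log2 fold change 1.80, SE 0.10). TFEB, the factor that controls lysosome genes, sat at the limit with 1.02, a call lost when 1 CPM was used as the pseudocount (0.99) or when the 2 h replicate 2 or the 24 h replicate 1 was left out.

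Members of the BCL2 family promote or block apoptosis at the mitochondrion. Of 15 measured, 4 fell and 2 rose (26.7% and 13.3%, against 10.9% and 11.6% of all genes), with a median of -0.10, and 1 fell with a pseudocount of 1 CPM. BCL2, the survival protein that venetoclax targets, was 145, 152, 149 and 157 CPM in DMSO, 144, 154, 146 and 136 CPM at 2 h and 53.4, 53.4 and 56.4 CPM at 24 h (log2 fold change -1.41, SE 0.06, adjusted p 4.7e-20). BCL2 was at its DMSO level at 2 h, and the groups at the 2 times did not overlap. MCL1 (log2 fold change 0.04, SE 0.04) and BCL2L1 (log2 fold change -0.21, SE 0.08), the other main survival members, did not reach 2-fold, and their groups overlapped. BMF, a killer protein of the BH3-only kind, was 6.34, 4.91, 4.87 and 5.10 CPM in DMSO, 57.5, 59.8, 58.0 and 61.0 CPM at 2 h and 128, 125 and 126 CPM at 24 h (log2 fold change 1.10, SE 0.07, adjusted p 5.3e-15). BCL2L11 (BIM) and BBC3 (PUMA), of the same kind, had log2 fold changes of 0.80 and 0.84, under 2-fold, with each late library above every early one. BCL2A1, a further survival member, was 3.42, 3.52, 2.81 and 3.56 CPM in DMSO and had 25 reads over the 2 h libraries and 3 over the 24 h libraries, 6.15-fold lower with an exact 95% interval of 1.88 to 31.8. BCL2L10 rose (log2 fold change 2.06, SE 0.41). The calls of BCL2A1, PMAIP1 (log2 fold change -1.12, SE 0.09) and BIK ended with a pseudocount of 1 CPM. That of BIK ended also at both other scalings, with the replicate block (-0.96) and without each of 3 libraries in turn.

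None of 24 measured members of the p53 target list passed in limma, and their median was 0.06. The list does not hold every p53 target: CDKN1A, which rose, and PMAIP1, which fell, are given with other lists above. BTG2 passed as higher with library totals (1.07), with the median of ratios (1.02) and without the 2 h replicate 4 (1.01), and GDF15 as lower in limma voom (-1.08) and without the 24 h replicate 4 (-1.23). At an unadjusted p below 0.05, 9 were higher and 5 lower, against 39.2% and 39.6% of all genes. BBC3, SESN2 and BTG2 are shared with other lists. Among 19 measured NF-kB targets and cytokines, 4 fell and 3 rose, with a median of 0. These are 21.05% and 15.79% of the measured members, against 10.9% and 11.6% of all genes. CD83, a surface protein of activated cells, fell from 17.1, 16.3, 16.0 and 18.2 CPM to 4.62, 2.83 and 4.43 CPM (log2 fold change -2.09, SE 0.11), and RELB, an NF-kB subunit, from 19.7, 17.9, 18.8 and 20.4 CPM to 6.60, 6.30 and 5.77 CPM (log2 fold change -1.61, SE 0.10). TNF was 51.2, 54.5, 53.5 and 49.0 CPM in DMSO, 3.68, 4.09, 3.38 and 3.53 CPM at 2 h and 1.73, 1.603 and 1.44 CPM at 24 h (log2 fold change -1.16, SE 0.10), a call lost when the pseudocount was 1 CPM. TRAF1, an adaptor of TNF receptors, rose from 3.34, 2.34, 2.04 and 3.09 CPM to 11.0, 9.83 and 10.4 CPM (log2 fold change 1.93, SE 0.30).

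Some genes turned back between 2 h and 24 h. These were picked for at least a 4-fold distance from DMSO at 2 h and a call in the opposite direction afterwards, so the values are a description. HBEGF, a ligand of the EGF receptor family, was 10.4, 10.0, 7.86 and 9.21 CPM in DMSO, 0.613, 1.47, 0.821 and 1.25 CPM at 2 h and 5.18, 5.52 and 4.15 CPM at 24 h. SEMA4C, a semaphorin, was 94.99, 94.3, 95.9 and 90.3 CPM, 19.6, 19.96, 17.5 and 18.8 CPM and 52.5, 49.8 and 48.0 CPM in the same order. SLC1A3, a glutamate transporter, was 6.30, 6.71, 7.19 and 7.23 CPM, 1.95, 1.47, 1.90 and 1.41 CPM and 4.29, 5.24 and 4.64 CPM. Each came part of the way back to DMSO, as did CAMKK1, a calcium-dependent kinase with means of 22.3, 5.27 and 11.4 CPM. The call of CAMKK1 was lost when the pseudocount was 1 CPM or the 2 h replicate 1 was left out. SPRY4 met the same rule. On the other side the rule found ARRDC3 alone, described above.

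The same time comparison in Molm-14 gave 945 genes that rose (7.25%) and 440 that fell (3.38%). It shares no library with that in OCI-AML3. Across the 13033 genes the log2 fold changes of the lines had r = 0.59 and rho = 0.62, as a description in which genes are not independent. Of the 1516 genes that rose in OCI-AML3, 513 (33.8%) rose in Molm-14 too, which is 54.3% of Molm-14's. Of the 1423 that fell, 277 (19.5%) fell in Molm-14, which is 63.0% of Molm-14's. Another 20 fell in OCI-AML3 and rose in Molm-14, and 18 did the opposite. The difference between the lines in the change from 2 h to 24 h, tested as an interaction in limma, was called for 873 genes with a more positive change in OCI-AML3 (6.7%) and 990 with a more negative one (7.6%).

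**Figure D4:**
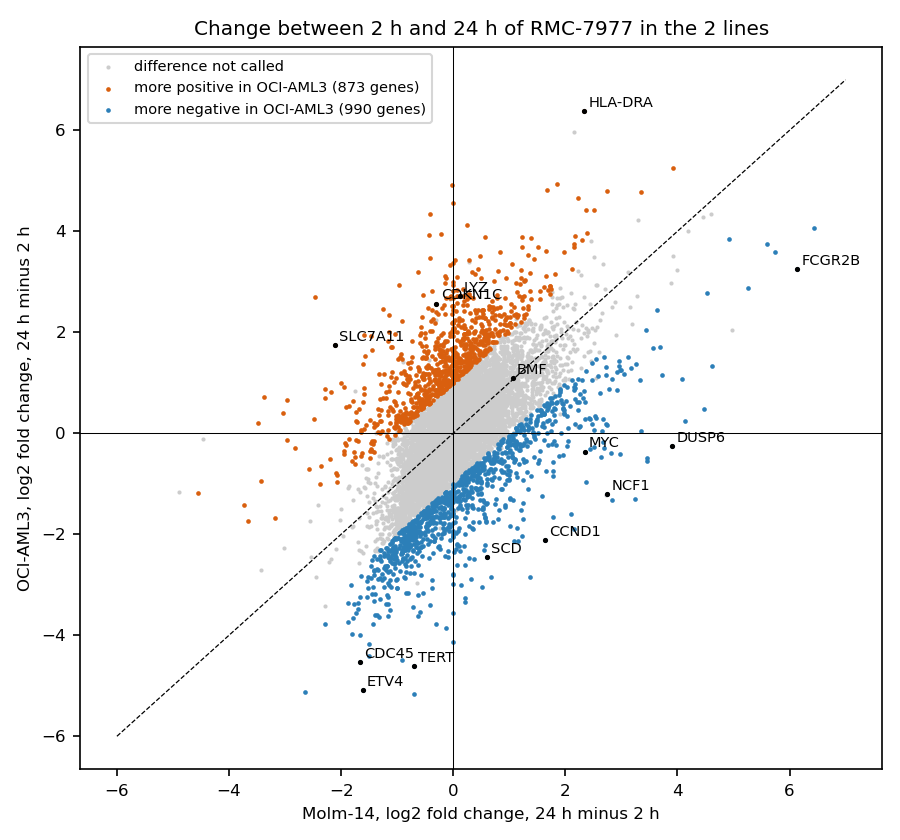
Log2 fold change, 24 h minus 2 h, in Molm-14 (horizontal) and OCI-AML3 (vertical), 1 point per gene, with orange for the 873 genes whose change was more positive in OCI-AML3 and blue for the 990 where it was more negative; the dashed line marks equal change. DUSP6, MYC and CCND1 lie to the lower right, with rises in Molm-14 of 3.91, 2.35 and 1.63, and HLA-DRA and SLC7A11 lie above the line.

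Most cell cycle genes fell further in OCI-AML3 than in Molm-14. Among all genes, 7.25% rose and 3.38% fell in Molm-14, and 7.6% had a more negative change in OCI-AML3. Of the 38 S phase genes, 29 fell in Molm-14 (median -1.16), and 27 had a more negative change in OCI-AML3. Of the 40 mitosis genes, 10 fell in Molm-14 (median -0.87), and 31 had a more negative change in OCI-AML3. CDC45 had a log2 fold change of -1.67 in Molm-14, a difference of -2.85. In the MYC and ribosome biogenesis list, 2 fell and 1 rose in Molm-14 (median -0.42), and 23 of 39 had a more negative change in OCI-AML3.

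Most ERK output genes rose in Molm-14 and did not in OCI-AML3. In Molm-14, 11 of 16 rose and 1 fell, with a median of 1.42, and 11 of 16 had a more negative change in OCI-AML3. The shares of all genes were 7.25%, 3.38% and 7.6%. DUSP6 in Molm-14 was 3.22, 2.54, 3.04 and 2.21 CPM at 2 h and 40.2, 42.4, 45.0 and 42.1 CPM at 24 h, with 47.0, 43.6, 42.9 and 42.1 CPM in DMSO. Its log2 fold change was 3.91 in Molm-14 and -0.26 in OCI-AML3, a difference of -4.17. MYC in Molm-14 was 66.5, 59.3, 61.8 and 62.7 CPM and then 326, 316, 323 and 310.2 CPM, and the lines differed by -2.71. CCND1 rose in Molm-14, from 3.04, 3.01, 3.33 and 2.60 CPM to 10.1, 8.33, 10.0 and 9.59 CPM, and fell in OCI-AML3, a difference of -3.74. ETV4 fell in both lines and further in OCI-AML3 (-3.47), and ETV5 (-2.38) and SPRY2 (-2.07) rose in Molm-14. The difference for SPRY4, -1.16, ended as a call with a pseudocount of 1 CPM (-0.27) and without the Molm-14 24 h replicate 1 (-0.97).

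**Figure D5:**
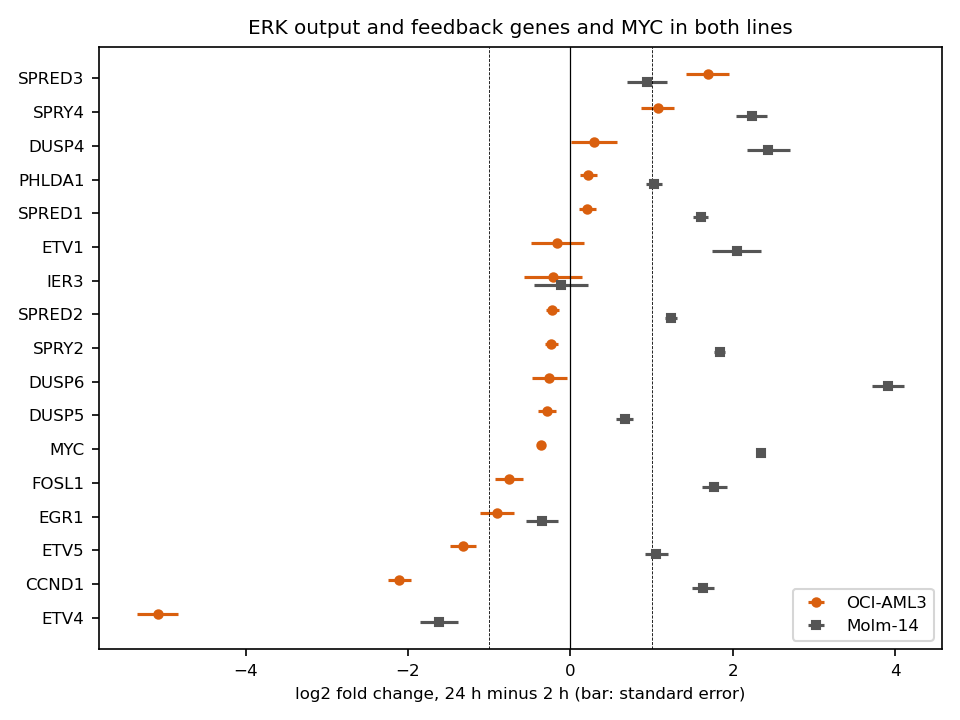
Log2 fold change, 24 h minus 2 h, of the 16 measured ERK output and feedback genes and MYC in OCI-AML3 (orange circles) and Molm-14 (grey squares), with bars for the standard error and dashed lines at a 2-fold change. In Molm-14 most genes lie right of the 2-fold line (median 1.42), and in OCI-AML3 most lie near or left of 0 (median -0.23).

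Metabolic and stress genes differed in both directions. Among all genes, 7.25% rose and 3.38% fell in Molm-14. The change in OCI-AML3 was more positive for 6.7% of all genes and more negative for 7.6%. In cholesterol and fatty acid synthesis, 4 of 26 rose in Molm-14 (median 0.61), and 16 had a more negative change in OCI-AML3, with SCD at 0.60 in Molm-14 and a difference of -3.05. In glycolysis, 6 of 24 rose in Molm-14, and 11 had a more negative change in OCI-AML3, among them LDHA (-1.72). In the integrated stress response, 19 of 28 fell in Molm-14 (median -1.43), and 9 had a more positive and 4 a more negative change in OCI-AML3. SLC7A11 fell in Molm-14, from 40.6, 44.7, 45.4 and 42.5 CPM to 11.1, 9.21, 10.3 and 9.25 CPM, against its rise in OCI-AML3, a difference of 3.86. ASNS fell in both and less in OCI-AML3 (1.51).

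Monocyte genes rose in both lines, with members that differed between the lines. In Molm-14, 15 of 34 monocyte genes rose, and 8 had a more positive and 7 a more negative change in OCI-AML3. The shares of all genes were 7.25%, 6.7% and 7.6%. LYZ had 0.11 in Molm-14, a difference of 2.61, and FCGR2B rose by 6.14 in Molm-14, a difference of -2.89. NCF1 of the phagocyte oxidase fell in OCI-AML3, from 108, 110.2, 109.9 and 134 CPM to 52.5, 51.2 and 45.8 CPM, and rose in Molm-14, from 36.7, 31.4, 34.2 and 31.9 CPM to 229, 239.6, 225 and 211 CPM, a difference of -3.96. Its copies NCF1B and NCF1C, which could share its reads, had differences of -4.15 and -4.55. HLA-DRA rose in Molm-14 too, by 2.33, and the change was larger in OCI-AML3 by 4.05.

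The remaining genes with the largest differences were scattered in function. More positive in OCI-AML3 were PRSS57, a granule protease of neutrophils (4.18), the unconventional myosin MYO7B (3.90), the glycosyltransferase GALNT3 (3.88), the scavenger receptor SCARA5 (3.70), UPK3BL2 (4.56) and KITLG. For UPK3BL2 the difference equals its change in OCI-AML3, whose call ended when only the libraries of the time comparison were fitted. KITLG, which encodes stem cell factor, had 1 read over the 2 h libraries and 93 over the 24 h libraries of OCI-AML3, a ratio of 126 with an exact 95% interval of 22.1 to 5033. More negative in OCI-AML3 were TERT (-3.91), SLCO4A1 with its 3 reads at 24 h, the galectin LGALS12 (-4.05) and SH3RF3, a scaffold protein with a ubiquitin ligase domain (-4.23). SH3RF3 had 87 reads over the 2 h libraries and 7 over the 24 h libraries of OCI-AML3. Its time call there ended with a pseudocount of 1 CPM (-0.96). LGALS12 was 73.7, 71.2, 73.2 and 65.8 CPM in DMSO, 8.19, 10.5, 9.08 and 9.21 CPM at 2 h and 2.67, 2.24 and 2.27 CPM at 24 h in OCI-AML3, and its log2 fold change in Molm-14 was 2.15. Among cell cycle and apoptosis genes, CDKN1C (2.87) and BBC3 (1.99) changed more positively and BCL2 (-1.38) more negatively in OCI-AML3. BCL2 in Molm-14 was 65.8, 57.6, 60.04 and 53.4 CPM at 2 h and 55.0, 55.6, 57.7 and 62.6 CPM at 24 h, a log2 fold change of -0.03, while BMF had 1.06 there and a difference of 0.04.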

How the data were processed

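Poly(A) RNA was sequenced from 2 cell lines treated with DMSO or RMC-7977. The values the authors deposited are log2 CPM for 13033 genes in 23 libraries, and the library names in the labels tie each column to a sample. The submitters' processing notes name STAR 2.7.8a, RSEM 1.3.3, limma 3.38.3, edgeR 3.24.3, Trimmomatic 0.36 and MultiQC 1.28 with hg38 (GRCh38). Their settings and the strand used for counting were not given in the sources used here. The lowest deposited value, log2 CPM -3.26 (0.105 CPM), corresponds to a prior of 1.96 reads, which understates changes of low genes.

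Effective library sizes of 15.3 to 22.4 M reads (median 18.4 M) were recovered from the spacing of low values, and of the values of at most 20 reads, 75.4% to 82.8% were whole within a tolerance of 0.05. CPM and read equivalents in the text were computed from these with the prior removed. The values are not whole counts, so limma 3.58.1 in R 4.3.3 (trend and robust options) was fitted to the deposited log2 CPM over all 6 groups, and p-values were adjusted by Benjamini-Hochberg over 13033 genes. Genes with 3 reads or fewer in a group are given as a ratio of summed reads with an exact 95% interval, which covers counting error only.

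The comparison, its 29 gene lists and the named genes were chosen with earlier results of these data known. Named genes were the 10 largest rises and falls that reached 5 CPM in 1 group and did not overlap between groups, up to 6 members per list by adjusted p with members whose role the text needs, the 8 largest differences between the lines in each direction, the genes that turned back, and a fixed set of RAS, ERK, cell cycle and BCL2 family genes; some of the genes these rules name are not reported here. Gene positions and promoters are RefSeq, GRCh38.p14. Other scalings, a pseudocount of 1 CPM, a filter at a mean of 1 CPM, limma voom on recovered reads, a replicate block and leaving out each library were tried.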

Additional observations from a re-analysis of the deposited data

Results flagged for a closer look

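In 11 of 179 named genes 1 of the 4 libraries at 2 h stood far from the other 3 (Dixon's ratio of gap to range, on log2 CPM); chance gives about 1 in 20 groups. The 2 h replicate 4 was the highest in MUC20 (ratio 0.864, 0.548 CPM), ETV4 (0.8292, 12.4 CPM), NCF1 (0.915, 134 CPM), MYC (0.904, 79.7 CPM), E2F1 (0.956, 75.0 CPM), AARS1 (0.873, 269 CPM), FDPS (0.855, 325.5 CPM) and GRN (0.921, 579.7 CPM), and the lowest in TAL1 (0.904, 2.12 CPM). The 2 h replicate 2 was the lowest in CIITA (0.860, 5.59 CPM), and the 2 h replicate 1 the highest in KITLG (1, 0.0557 CPM, the only 2 h library with a read). Without the 2 h replicate 4, which also stood apart on the second principal component, 2940 genes passed.

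The change from 2 h to 24 h differed between the lines, by the interaction term in limma, in 25 named genes. It was more positive in OCI-AML3 (log2 difference) for UPK3BL2 (4.56), KITLG (4.36), PRSS57 (4.18), HLA-DRA (4.05), MYO7B (3.90), GALNT3 (3.88), SLC7A11 (3.86), SCARA5 (3.70), CDKN1C (2.87) and BBC3 (1.99). It was more negative for NCF1C (-4.55), SLCO4A1 (-4.47), SH3RF3 (-4.23), DUSP6 (-4.17), NCF1B (-4.15), LGALS12 (-4.05), NCF1 (-3.96), TERT (-3.91), CCND1 (-3.74), ETV4 (-3.47), MYC (-2.71), ETV5 (-2.38), SPRY2 (-2.07), BCL2 (-1.38) and SPRY4 (-1.16). KITLG and SLCO4A1 rest on 1 to 3 reads in 1 group, so their fitted differences depend on the prior.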

How the results depend on the processing

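The counts over all genes stayed within 1.5 times under the alternatives run except the call rule. The balance of rises and falls moved with the scaling. From 1516 higher and 1423 lower it went to 1785 and 1205 with library totals, and to 1636 and 1322 with the median of ratios. With no minimum fold, 10117 genes passed in the time comparison (5022 higher, 5095 lower) and 7842 in the difference between the lines (3272 more positive, 4570 more negative), since that rule drops the 2-fold limit. Leaving out each library in turn gave 2921 to 2959 genes (1507 to 1554 higher, 1402 to 1446 lower) and 1824 to 1883 differences (847 to 895 more positive, 969 to 1023 more negative). Replicate numbers did not pair the OCI-AML3 libraries: deviations from the group means of same-numbered 2 h and 24 h libraries correlated at -0.00075, -0.038 and -0.146 over 12640 genes. In Molm-14 same-numbered libraries correlated weakly but positively, at 0.080, 0.014, 0.115 and 0.051, and different-numbered ones at -0.104 to 0.058. The replicate block gave 2937 genes (1523 higher, 1414 lower) and 1862 differences (882 and 980). Of 812 counts of list members under the alternatives, 29 moved by more than 1.5 times, in 15 of 58 counts. With library totals, the respiratory chain fallers went from 7 to 4, the immediate early risers from 3 to 5, the MHC class I fallers from 3 to 1 and the p53 risers from 0 to 1. With a pseudocount of 1 CPM, the ERK output risers went from 2 to 0, and the fallers among immediate early and BCL2 family genes each from 4 to 1. The other moves were of lists with small counts, as given with their genes. Over the 721 genes of the lists and naming rules, of which 326 passed in the time comparison, 37 lost their call in at least 1 alternative other than the call rule, 23 gained one (EGR1, PRIM2 and BTG2 among them) and none reversed. Depth limits genes under about 1 CPM, where a group holds few reads.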

Other observations

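Histone genes form a further group, picked by symbol after their values were seen, so it has no test. Replication-dependent histone mRNAs normally lack a poly(A) tail and peak in S phase, and these libraries were selected for poly(A). Of 19 histone genes measured, 15 rose between 2 h and 24 h and 1 fell, with a median log2 fold change of 2.30, and in Molm-14 11 rose and 1 fell, with a median of 1.72. H2BC5, a histone H2B gene, was 2.41, 3.11, 1.74 and 3.09 CPM at 2 h and 49.07, 49.98 and 48.02 CPM at 24 h. H2AC6, a histone H2A gene, was 8.52, 9.79, 10.2 and 9.08 CPM and then 150, 150.5 and 155.6 CPM. No library at 2 h reached any library at 24 h in either gene. H2AC20, a replication-dependent histone H2A gene, was 3.72, 4.85, 3.96 and 4.50 CPM at 2 h and 1.33, 1.23 and 0.830 CPM at 24 h. Reads of near-identical histone genes such as H2AC18 and H2AC19 could be split between copies.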
